A study of Mus musculus with 43 samples.

Results

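The genes that make, move, store and export cholesterol were followed through 43 bulk RNA sequencing libraries of mouse colon cultures. The 34 genes were taken by symbol from the 52636 genes of the deposited tables. Of these, 19 encode enzymes of sterol synthesis, 5 the sterol-sensing machinery, 5 proteins of sterol transport and storage, and 5 the efflux arm with its nuclear receptors.

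Colonoids were organoids of colon epithelium with the genotype Apc WT (lines M41, M40 and M1), and tumoroids were organoids labelled Apc deficient (floxed) (lines F11, M3 and M14). Each line came from 1 mouse of 2 months of age, male except for F11. Both genotypes carried the Vil-cre/ERT2 transgene, a Cre driven by the villin promoter and therefore active in gut epithelium, and both were injected with tamoxifen, so the colonoids shared the Cre and the tamoxifen but kept both Apc alleles. Organoids were cultured for 6 days with the DMSO vehicle (Ve), with regorafenib, a multi-kinase inhibitor given in colorectal cancer, at 4 µM (R4) or 8 µM (R8), or with the pyrimidine analogue 5-FU at 1 µM, which gave 24 libraries in 8 groups of 3 lines. Wild-type colon fibroblasts of C57B/6 mice (lines M3, M3 (2), M1 (2) and M11) were kept for 7 days in vehicle, in regorafenib at 4 µM or 10 µM (R10), in autogramin-2 at 1 µM (an inhibitor of the sterol transfer protein Gramd1a), or in 4 µM regorafenib with autogramin-2 (R4A1). These gave 19 libraries, because no 10 µM library of line M11 was analysed here.

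Values are CP20M, which are counts scaled to 20000000 per library and not divided by gene length, so 20 CP20M are 1 CPM. Fold changes are on the scale of log2(CP20M + 20), which understates the change of low genes, with their standard error (SE) after ±. Between 4371828 and 22368148 reads were counted in all organoid libraries but 1, and between 7949971 and 12825922 in the fibroblasts. The remaining organoid library, colonoid line M41 with 4 µM regorafenib, held only 512599 reads, where 1 read is worth 39.0 CP20M. In this shallow library 5 of the 34 genes had fewer than 5 reads and 30 had fewer than 50. Where leaving it out changes a call averaged over the doses and both genotypes, the value without it is given too. The summed level of 7 epithelial markers was 70440 to 179062 CP20M in organoids and 6 to 96 in fibroblasts, while 7 fibroblast markers had group medians of 19 to 67 in organoids and summed to 110872 to 185810 in fibroblasts. The cultures thus carried the markers of their labels. In bulk libraries, fewer cells of a type and less RNA per cell cannot be told apart.

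Cholesterol is built from acetyl-CoA through mevalonate, squalene and lanosterol. When membranes run short of sterol, Scap escorts the transcription factor SREBP2 (encoded by Srebf2) from the endoplasmic reticulum, the released factor switches on the enzymes of the pathway, and Insig proteins hold the complex back when sterol is plentiful. Sterol that enters the cell in lipoproteins is freed in the lysosome by the acid lipase Lipa, leaves it through Npc2 and Npc1, and is esterified for storage by Soat1. When sterol accumulates, the liver X receptors (LXR, encoded by Nr1h3 and Nr1h2) respond to oxysterols and raise the exporters Abca1 and Abcg1 and the ubiquitin ligase Mylip, which marks lipoprotein receptors for degradation. RNA of genes of both arms was found in the organoids and in the fibroblasts, while the activity of SREBP2 and LXR was not measured.

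Because the 2 arms are defined by the factors that bind their promoters, the promoters of some of the genes on which the results turn are shown first. RefSeq promoter windows (GRCm38.p6, 250 bases before to 50 bases after the start site) were found for 28 of the 34 genes, in 37 windows. No window was found for Fdps, Fdft1, Sqle, Stard4, Npc1 and Abcg1, so their promoters were not searched. The windows were searched on both strands for TCACNCCAC, a form of the sterol response element bound by SREBP, for CCAAT, the site of NF-Y, which reads ATTGG on the other strand, and for the LXR element, a direct repeat of AGGTCA with any 4 bases between the copies. No searched motif overlaps another in the stretches printed here. The stretches are 200 bases each, 5′ to 3′ on the strand of the gene, with matches in capitals. They end at the base before the most upstream annotated start, which lies 36 bases before the RefSeq start for Hsd17b7, 49 for Insig1, 40 for Npc2 and 3 for Soat1, and CCAAT matches outside them (1 of Hsd17b7, 1 of Npc2 and 2 of Hmgcs1) are not shown. Hmgcs1, Hsd17b7 and Insig1 stand for the synthesis arm, Npc2 and Soat1 for transport and storage, and Abca1 and Mylip for the efflux arm.
Hmgcs1: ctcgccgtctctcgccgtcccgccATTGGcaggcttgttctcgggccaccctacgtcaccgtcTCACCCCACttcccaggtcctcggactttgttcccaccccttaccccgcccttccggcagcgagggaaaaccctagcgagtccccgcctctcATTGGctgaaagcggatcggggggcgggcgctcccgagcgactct
Hsd17b7: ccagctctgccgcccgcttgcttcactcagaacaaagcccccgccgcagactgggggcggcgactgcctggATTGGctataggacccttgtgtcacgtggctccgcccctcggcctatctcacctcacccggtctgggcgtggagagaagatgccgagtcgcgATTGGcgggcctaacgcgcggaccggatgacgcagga
Insig1: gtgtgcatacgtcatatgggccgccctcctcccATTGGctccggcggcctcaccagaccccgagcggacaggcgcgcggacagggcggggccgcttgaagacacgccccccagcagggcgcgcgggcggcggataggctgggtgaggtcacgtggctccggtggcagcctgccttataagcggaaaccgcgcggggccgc
Npc2: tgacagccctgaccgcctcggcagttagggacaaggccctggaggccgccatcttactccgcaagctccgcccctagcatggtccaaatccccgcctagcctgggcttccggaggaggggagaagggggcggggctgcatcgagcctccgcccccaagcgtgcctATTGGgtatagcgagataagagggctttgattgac
Soat1: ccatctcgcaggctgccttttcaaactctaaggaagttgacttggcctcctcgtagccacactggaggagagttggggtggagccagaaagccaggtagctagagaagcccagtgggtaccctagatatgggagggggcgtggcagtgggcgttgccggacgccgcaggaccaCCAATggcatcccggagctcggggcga
Abca1: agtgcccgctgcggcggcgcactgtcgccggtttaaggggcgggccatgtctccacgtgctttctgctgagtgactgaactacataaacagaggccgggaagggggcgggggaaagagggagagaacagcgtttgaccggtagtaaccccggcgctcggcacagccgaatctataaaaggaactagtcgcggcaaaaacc
Mylip: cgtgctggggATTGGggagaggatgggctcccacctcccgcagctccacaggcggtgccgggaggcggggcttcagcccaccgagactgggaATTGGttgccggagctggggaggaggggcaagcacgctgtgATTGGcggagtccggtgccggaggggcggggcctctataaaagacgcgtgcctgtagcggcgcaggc
Their positions are Hmgcs1 chr13:119690151-119690350 (plus strand), Hsd17b7 chr1:169969242-169969441 (minus strand), Insig1 chr5:28071163-28071362 (plus strand), Npc2 chr12:84773153-84773352 (minus strand), Soat1 chr1:156474332-156474531 (minus strand), Abca1 chr4:53159896-53160095 (minus strand), Mylip chr13:45389542-45389741 (plus strand). Hmgcs1 was the only one of the 28 genes whose window held the sterol response element in this spelling, that is 1 of 37 windows (2.7%) against 1.24% of all 32851 promoters of the same length. CCAAT was found in 24 of 37 windows (64.9%) against 37.4% of all promoters. By role, it was found in 15 of 19 windows of enzymes (78.9%), 5 of 10 of the sensing genes, 3 of 3 of the transport genes and 1 of 5 of the efflux arm, which is the Mylip promoter with 3 matches. The LXR repeat in this exact spelling was in none of the 37 windows and in 5 of all promoters (0.0152%). Copies that depart from AGGTCA were not searched for. The lack of a match, as in Abca1, therefore does not show that an LXR element is absent. A match is a description of the letters and was not measured as a binding site.

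In vehicle, and per kilobase of all annotated exons, the synthesis arm led in organoids and the lysosomal carrier Npc2 led in fibroblasts. This length pools the exons of all annotated transcripts of a gene (5438 bases for Npc2). A gene read mainly from a shorter transcript is therefore understated, and the order of the genes may change with the length used. Per kilobase of exon, the highest means in colonoids were Hmgcs1, which makes HMG-CoA (53.4 ± 15.6 CPM per kb, SD, n = 3), Srebf2 (52.4 ± 10.3) and then Insig1, and these overlapped within their spread. In tumoroids Srebf2 (63.9 ± 5.82 CPM per kb, SD, n = 3) was followed by its paralogue Srebf1 (39.4 ± 5.68) and Hmgcs1 (38.2 ± 13.9), and the last pair overlapped. In fibroblasts Npc2 reached 77.5 ± 5.12 CPM per kb (SD, n = 4), ahead of Insig1 (32.2 ± 4.06) and the sterol ketoreductase Hsd17b7 (25.2 ± 4.39). Nr1h3, which encodes LXR alpha, was the lowest of the 34 in all 3 kinds of culture, at 0.557, 0.583 and 1.4 CPM per kb in colonoids, tumoroids and fibroblasts. In CP20M it lay between 0 and 43 in the organoid libraries and between 26 and 111 in the fibroblasts, and it was too low to be tested. Organoids and fibroblasts were normalised in separate tables, so these orders were not compared by a test.

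In vehicle, tumoroids were set against colonoids. None of 33 tested genes passed the threshold (limma, adjusted p below 0.05 with a change of at least 1.5-fold in either direction), against 1.39% of all 11320 genes tested, and 3 had an unadjusted p under 0.05. edgeR and DESeq2 on the recovered reads also called none. The fold changes of tumoroids against colonoids ran from -0.68 for Stard4 to 0.66 for Mylip on the log2 scale. The standard errors of the 33 genes were 0.14 to 0.69.

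**Figure D1:**
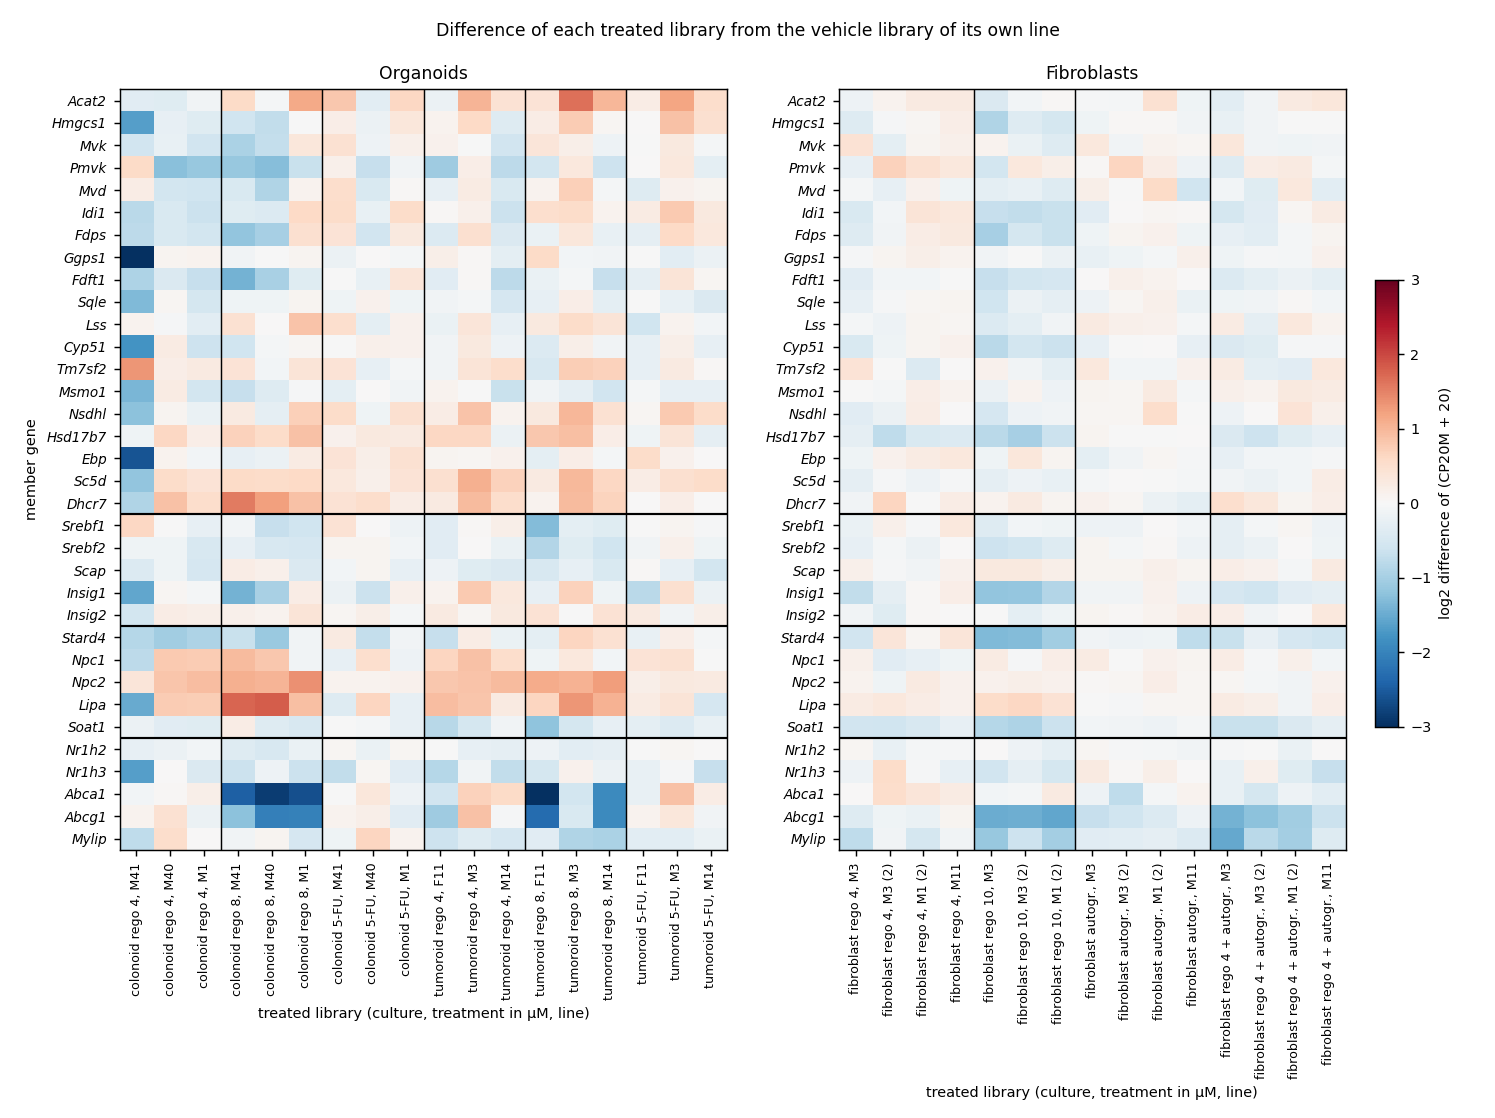
Log2 difference of each treated library (columns) from the vehicle library of its own line for the 34 genes (rows, split by role into enzymes, sensing, transport and storage, and efflux); red is higher and blue lower, on log2(CP20M + 20), with colours capped at 3. The Abca1 and Abcg1 rows are blue in the 8 µM organoid columns and of either sign at 4 µM, with red cells in tumoroid line M3 and blue ones in line F11, the Npc2 row is red in every regorafenib organoid column, and the 10 µM fibroblast columns are mostly blue; the first organoid column is the shallow library.

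In organoids, regorafenib raised the lysosomal carrier Npc2 and lowered the exporter Abca1, and calls among the enzymes depended on the dose and on the shallow library. With both doses averaged and both genotypes together, 2 of the 33 tested genes were called, Npc2 higher and Abca1 lower, against 16.21% of all 11320 genes. In colonoids 3 were called (Npc2, Abca1 and Fdft1) against 13.3% of all genes, but 1 without line M40, and in tumoroids 1 (Npc2) against 6.78%. The share of called genes in the set was thus not above that of the genome. With the line as a block, which pairs each treated library with the vehicle library of the same mouse, the calls were 4 (17.9% of all genes) and 4 in colonoids (16.6%). Without the shallow library they were 6 (18.4%), 6 in colonoids (18.7%) and 3 in tumoroids (12.8%). The split of all called genes in colonoids depended on scaling, with 612 higher and 888 lower as deposited but 880 and 762 with TMM scaling, and the median over all genes in that contrast moved from -0.14 to -0.04 on the log2 scale.

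The exporters of the efflux arm fell at 8 µM, and no fall was detected at 4 µM. Abca1 passes cholesterol to apolipoprotein A-I at the cell surface. In colonoids M41, M40 and M1 it was at 580, 525 and 959 CP20M in vehicle, at 547, 536 and 1090 with 4 µM, and at 89, 56 and 138 with 8 µM. In tumoroids F11, M3 and M14 it was at 1234, 658 and 1349 in vehicle, at 824, 1078 and 2030 with 4 µM, and at 120, 441 and 343 with 8 µM. Every 8 µM library lay below every vehicle and every 4 µM library of its genotype. Abca1 was lower by a log2 fold change of -2.40 ± 0.33 (SE) between 8 and 4 µM (adjusted p = 0.00932). It was the only one of the 33 genes called there, against 0.451% of all genes. Without line M40 (-2.35, adjusted p = 0.0914) or M14 (-2.30, adjusted p = 0.0674) the Abca1 call was lost. With the line as a block Abcg1 was called as well (1.78% of all genes). All genes called between the doses split into 21 higher and 30 lower, or 29 and 67 with TMM scaling.

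Contrasts of a single dose with vehicle were added after the averaged results had been seen. At 8 µM Abca1 changed by -2.26 ± 0.33 on the log2 scale in both genotypes together (adjusted p = 0.000229), by -2.64 ± 0.47 in colonoids (adjusted p = 0.00197) and by -1.88 ± 0.47 in tumoroids (adjusted p = 0.0316). At 4 µM its fold change was 0.14 ± 0.33 (adjusted p = 0.798). The averaged contrast, -1.06 ± 0.29 (adjusted p = 0.013), therefore joins a dose with no detectable difference to one with a large one. Both contrasts use the same vehicle libraries.

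Abcg1, which moves cholesterol to larger lipoprotein particles, had the same profile with more spread. In colonoids it was at 1448, 1119 and 2276 CP20M in vehicle, 1561, 1554 and 2023 with 4 µM and 608, 256 and 545 with 8 µM. In tumoroids it was at 695, 861 and 2387 in vehicle, 319, 1609 and 2325 with 4 µM and 125, 624 and 621 with 8 µM. The 8 µM libraries were below the vehicle libraries in both genotypes, and tumoroid line F11 was the lowest of its group in vehicle and at both doses. At 8 µM the log2 fold change over both genotypes was -1.66 ± 0.49 (adjusted p = 0.022), and averaged over the doses it was -0.81 ± 0.42, which passed with the line as a block (adjusted p = 0.0127).

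The rest of the efflux arm showed no call in organoids. Mylip was at 280, 117 and 338 CP20M in vehicle colonoids and 257, 125 and 234 with 8 µM. In tumoroids Mylip was at 237, 384 and 542 in vehicle, 148, 288 and 379 with 4 µM and 183, 196 and 271 with 8 µM, lower than vehicle in 3 of 3 lines at both doses. Over both genotypes its averaged fold change was -0.37 ± 0.27 on the log2 scale. Nr1h2, which encodes LXR beta, was at 1487 to 1994 CP20M in the 6 vehicle libraries and 1253 to 1637 with 8 µM (averaged log2 fold change -0.24 ± 0.09, adjusted p = 0.0535). Nr1h3 was at 0 to 43 CP20M throughout.

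**Figure D2:**
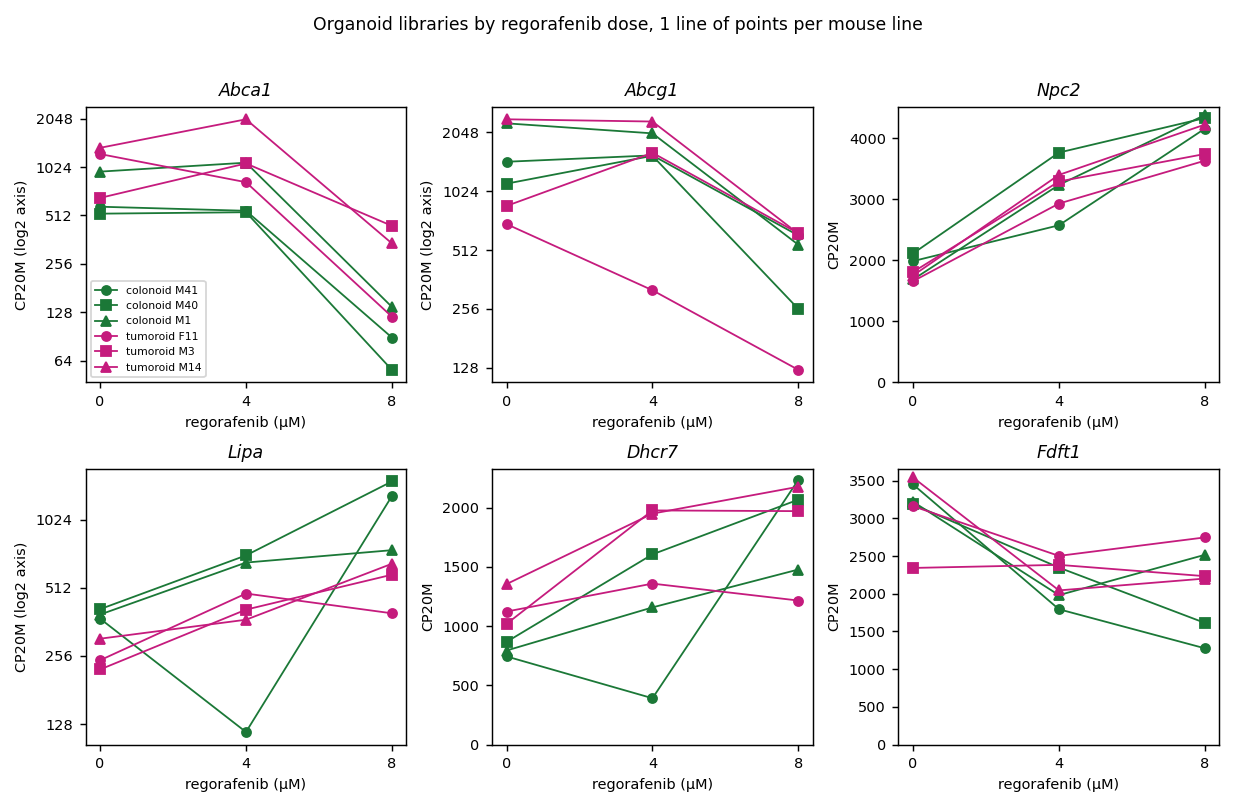
CP20M of 6 genes against regorafenib dose in µM, with 1 line of points for each mouse line, colonoids in green and tumoroids in pink; Abca1, Abcg1 and Lipa are on a log2 axis and the others on a linear axis from 0. Abca1 stays between 525 and 2030 at 0 and 4 µM and drops to between 56 and 441 at 8 µM, Npc2 climbs in all 6 lines, and the low points of line M41 at 4 µM are the shallow library.

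Npc2, the soluble protein that takes cholesterol from the lysosomal lumen, was upregulated in all 6 lines and at both doses. In colonoids it was at 1988, 2114 and 1687 CP20M in vehicle, 2576, 3768 and 3238 with 4 µM and 4160, 4334 and 4383 with 8 µM. In tumoroids its values were 1659, 1810 and 1752 in vehicle, 2932, 3294 and 3402 with 4 µM and 3635, 3745 and 4227 with 8 µM. None of the 3 conditions overlapped in either genotype. The log2 fold change averaged over the doses was 0.97 ± 0.09 (adjusted p = 8e-06), with 0.93 ± 0.13 in colonoids and 1.01 ± 0.13 in tumoroids. Npc2 alone was called at 4 µM, at 0.79 ± 0.10 over both genotypes, where 13.6% of all genes were called, and also in colonoids (7.01% of all genes) and in tumoroids (2.82%) taken alone. Without the shallow library, however, 6 genes were called at 4 µM over both genotypes (16.24% of all genes), namely Npc2, Npc1 at 0.74, Lipa at 0.72, Sc5d at 0.69, Dhcr7 at 0.67 and Pmvk at -0.84 on the log2 scale. In colonoids they were then 2, Npc2 and Pmvk (9.58%).

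Lipa, the lysosomal acid lipase that frees cholesterol from its esters, was higher at 8 µM. In colonoids it was at 374, 412 and 390 CP20M in vehicle, 118, 712 and 662 with 4 µM and 1302, 1511 and 751 with 8 µM. In tumoroids it was at 245, 223 and 305 in vehicle, 483, 410 and 370 with 4 µM and 395, 585 and 654 with 8 µM. The value of 118 rests on 3 reads of the shallow library, and all other regorafenib libraries lay above the vehicle libraries of their genotype. At 8 µM the log2 fold change was 1.25 ± 0.33 (adjusted p = 0.0126). Averaged over the doses it was 0.79 ± 0.29 (adjusted p = 0.0526), and without the shallow library 0.99 ± 0.14 (adjusted p = 0.000125). Of the macrophage markers, Cd68, itself a lysosomal protein, ranged from 32 to 2659 CP20M in organoids, and the sum of the 8 markers went from 431 to 575 CP20M in vehicle to 596 to 3247 with 8 µM, while Ptprc, Adgre1, Lyz2, C1qa and C1qb stayed at 0 to 40 CP20M in all 24 libraries. The part of this marker sum in the Lipa and Npc2 values was not tested.

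Npc1, the membrane partner of Npc2, was not called with both doses averaged (log2 fold change 0.38 ± 0.24, adjusted p = 0.266). Soat1, which esterifies cholesterol for storage, had an adjusted p of 0.0458 at a log2 fold change of -0.42 ± 0.15, under the fold threshold. Stard4, a cytosolic sterol carrier, was not called in the main fit but was called in colonoids with the line as a block, at -0.79 ± 0.19 (adjusted p = 0.0159), and its response did not pass a test of a difference between the genotypes.

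The enzymes did not move as a group in organoids. None of the 19 passed in limma with both genotypes and both doses together, and 5 had an unadjusted p under 0.05. On the recovered reads edgeR called Sc5d and Dhcr7 (2 enzymes, all higher) and DESeq2 these and Hsd17b7 (3 enzymes), where they called 18.7% and 19.7% of all genes. The enzymes' median log2 fold change was -0.19 beside -0.10 over all genes. Fdft1, squalene synthase, was the enzyme called in colonoids. Its values were 3451, 3186 and 3221 CP20M in vehicle, 1795, 2348 and 1982 with 4 µM and 1277, 1614 and 2517 with 8 µM. All 6 treated colonoid libraries lay below the vehicle libraries, at a log2 fold change of -0.80 ± 0.19 (adjusted p = 0.011). In tumoroids Fdft1 was at 3162, 2343 and 3543 in vehicle, 2503, 2384 and 2045 with 4 µM and 2748, 2234 and 2202 with 8 µM, where the groups overlapped.

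Dhcr7, which carries out the last step of one route to cholesterol, went the other way. In colonoids it was at 744, 867 and 794 CP20M in vehicle, 391, 1606 and 1158 with 4 µM and 2235, 2068 and 1478 with 8 µM. Tumoroids had 1123, 1019 and 1355 in vehicle, 1359, 1977 and 1950 with 4 µM and 1216, 1971 and 2177 with 8 µM. Apart from the shallow library every regorafenib library was above the vehicle library of its line. The averaged log2 fold change was 0.64 ± 0.23 (adjusted p = 0.0533), 0.64 ± 0.21 in the paired fit (adjusted p = 0.0405) and 0.78 ± 0.14 without the shallow library (adjusted p = 0.000619).

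Pmvk, phosphomevalonate kinase, was the enzyme with the second largest averaged fold change, -0.62 ± 0.23 (adjusted p = 0.0607). In colonoids it was at 255, 327 and 261 CP20M in vehicle, 391, 126 and 107 with 4 µM and 105, 123 and 156 with 8 µM. In tumoroids it was at 225, 169 and 220, then 97, 197 and 119, then 146, 215 and 135. The value of 391 comes from the shallow library, and without it Pmvk was called at -0.75 ± 0.16 (adjusted p = 0.00179), as was the sterol desaturase Sc5d at 0.64 ± 0.15 (adjusted p = 0.004).

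At 8 µM alone, 8 of the 33 genes were called over both genotypes, against 16.9% of all genes. They were the thiolase Acat2 at 0.79 ± 0.26, Hsd17b7 at 0.68 ± 0.21, Dhcr7 at 0.90 ± 0.27, Npc2 at 1.15 ± 0.10 and Lipa on the higher side, and Fdft1 at -0.62 ± 0.15, Abca1 and Abcg1 on the lower side, all as log2 fold changes. In colonoids 5 were called (13.3% of all genes) and in tumoroids 2, Npc2 and Abca1 (4.88%). The 19 enzymes split into 9 higher and 10 lower, with a median of -0.05 equal to that of all genes to 2 decimals.

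With both doses averaged, 4 of the 5 sterol-sensing genes were lower in organoids and none was called. Their median log2 fold change was -0.26 beside -0.10 over all genes. In colonoids it was -0.19 beside -0.14 over all genes, and in tumoroids -0.35 beside -0.05. Srebf2 was at 6097, 7452 and 9058 CP20M in vehicle colonoids, 5580, 6788 and 6539 with 4 µM and 5178, 5361 and 6410 with 8 µM. Tumoroid libraries held 8778, 8631 and 10148, then 6969, 8659 and 8817, then 4734, 6746 and 6754, so that the 8 µM tumoroid libraries lay below the vehicle ones. Its averaged log2 fold change was -0.36 ± 0.11 (adjusted p = 0.0286), past the p threshold but under the fold threshold. Scap was at 2616, 2459 and 3172 in vehicle colonoids and 3052, 2717 and 2347 with 8 µM, and at 3443, 3172 and 3612 in vehicle tumoroids and 2472, 2678 and 2625 with 8 µM. The 4 µM colonoids had 1951, 2262 and 2231 CP20M of Scap and the 4 µM tumoroids 3091, 2469 and 2658. The averaged log2 fold change of Scap was -0.27 ± 0.09 (adjusted p = 0.036). Insig1, itself an SREBP2 target, had a log2 fold change of -0.19 ± 0.23 and Insig2 one of 0.16 ± 0.11. In tumoroids at 4 µM both lay above vehicle in 3 of 3 lines. Srebf1 was at 2368, 3304 and 3929 CP20M in vehicle colonoids, 3668, 3288 and 3301 with 4 µM and 2249, 2023 and 2581 with 8 µM. Tumoroids had 5167, 3979 and 4160 of Srebf1, then 4054, 4086 and 4738, then 2088, 3242 and 3228. Its 8 µM libraries lay below the 4 µM ones in both genotypes.

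**Figure D3:**
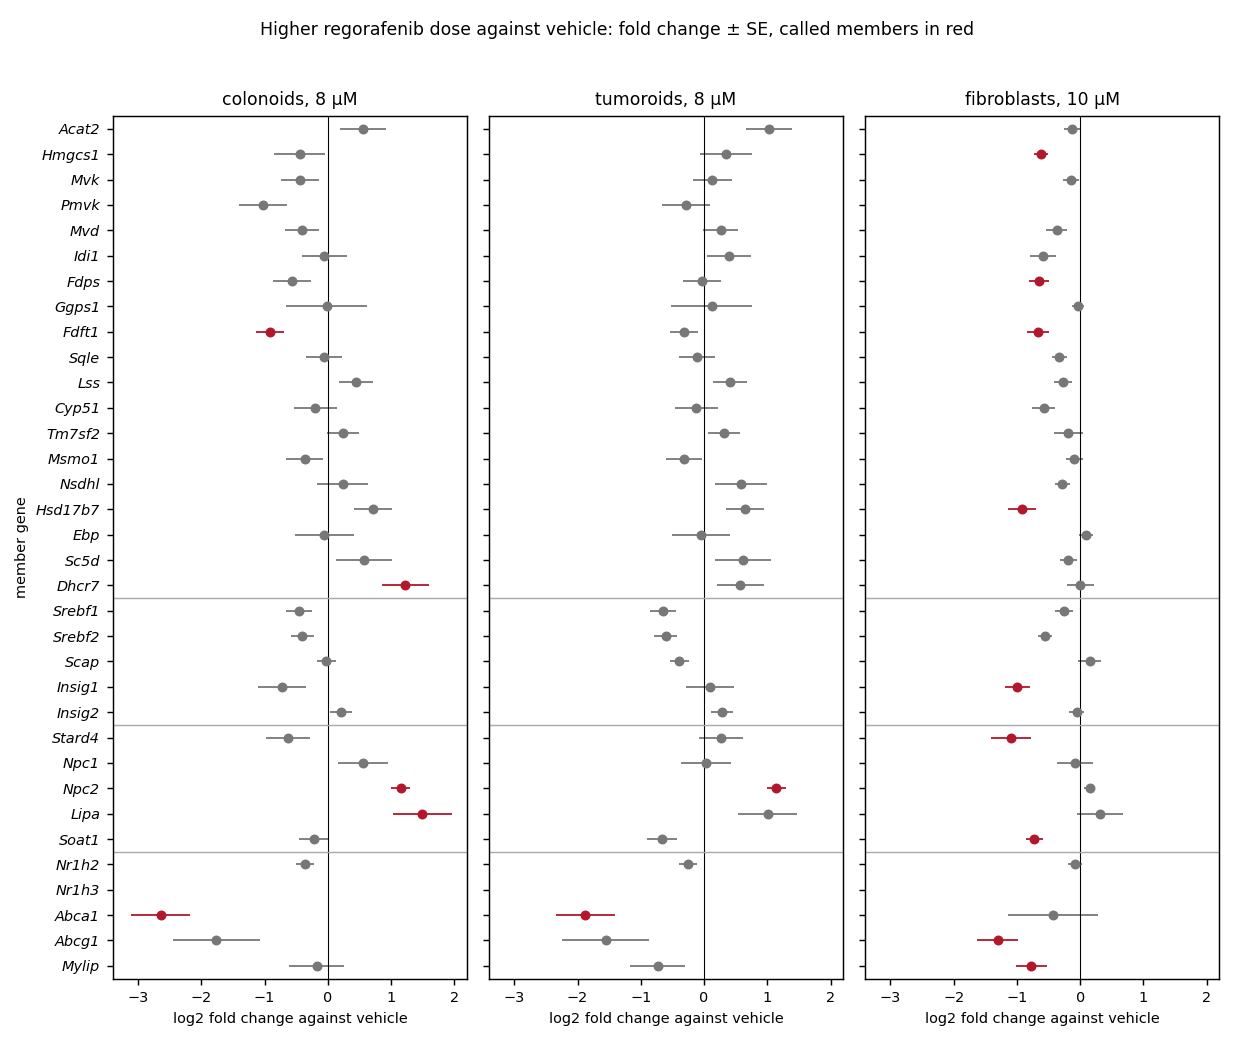
Log2 fold change against vehicle, with its standard error as a bar, of each tested gene at the highest regorafenib dose in colonoids (8 µM), tumoroids (8 µM) and fibroblasts (10 µM); called genes are red and grey lines divide the roles. Abca1 is red in both organoid panels and Abcg1 in the fibroblast panel, where all 9 called genes lie left of 0.

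The response did not differ detectably between tumoroids and colonoids. In the test of the difference itself no gene of the set passed, against 0.00883% of all genes (1 gene), and none had an unadjusted p under 0.05. Neither edgeR nor DESeq2 called any. The median of the 19 enzymes in that test was 0.43 on the log2 scale beside 0.10 over all genes, and 0.16 beside -0.0031 without the shallow library, which is a colonoid library. With 5-FU none of the 33 genes was called, against 2.35% of all genes, and 1 had an unadjusted p under 0.05. edgeR and DESeq2 also called none, and Abca1 changed by only 0.18 ± 0.30 on the log2 scale.

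In fibroblasts, 10 µM regorafenib lowered genes of both arms. Of 32 tested genes 9 were called and all 9 were lower, against 7.33% of all 11032 genes and 4.09% counted as lower. In all, 27 of the 32 had a negative fold change, with a median of -0.28 on the log2 scale beside -0.04 over all genes. With the line as a block 9 were called as well (13.8% of all genes, 7.71% lower). Idi1 and Cyp51 then took the place of Hmgcs1 and Fdft1, whose fold changes of -0.58 fell just under the fold threshold. In the values below the lines come in the order M3, M3 (2), M1 (2) and M11, and the 10 µM group lacks M11.

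Of the enzymes 4 were called. Hsd17b7 was at 2128, 2285, 2767 and 3105 CP20M in vehicle and at 1200, 1137 and 1753 with 10 µM, a log2 fold change of -0.92 ± 0.23 (adjusted p = 0.0121). Fdft1 went from 1354, 1228, 1483 and 1735 to 832, 832 and 1038 (-0.67 ± 0.17, adjusted p = 0.0146). Fdps, which makes farnesyl diphosphate, went from 1313, 1262, 1293 and 1003 to 646, 865 and 808 (-0.64 ± 0.16, adjusted p = 0.0121). Hmgcs1, whose promoter is shown above with its sterol response element, went from 2142, 1758, 1931 and 2003 to 1143, 1331 and 1336 (-0.62 ± 0.11, adjusted p = 0.00148). In these 4 genes the groups did not overlap and all 3 paired lines fell. The genes were called on the same libraries, so the lack of overlap adds no support, here or for the called genes below. The lanosterol demethylase Cyp51 had a log2 fold change of -0.58 ± 0.18 (adjusted p = 0.0388), just under the threshold. Dhcr7, at 366, 286, 388 and 531 in vehicle and 396, 350 and 411 with 10 µM, had a log2 fold change of 0.00 ± 0.22.

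Among the sensing genes Insig1 was called. It went from 1949, 2193, 2174 and 1655 CP20M to 844, 963 and 1176, a log2 fold change of -0.99 ± 0.19 (adjusted p = 0.00295). Srebf2 went from 2618, 2888, 2809 and 3069 to 1687, 1958 and 2141 (-0.56 ± 0.11, adjusted p = 0.00366), without overlap but under the fold threshold. Scap was at 0.15 ± 0.18 and Insig2 at -0.05 ± 0.12 on the log2 scale, with adjusted p of 0.654 and 0.824.

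Stard4 and Soat1 fell in the transport and storage group. Stard4 went from 651, 810, 623 and 474 CP20M to 247, 315 and 294, a log2 fold change of -1.09 ± 0.32 (adjusted p = 0.0305). Soat1 went from 4930, 4203, 3808 and 3387 to 2722, 2214 and 2414 (-0.72 ± 0.13, adjusted p = 0.00199). Neither gene overlapped between the groups. The lysosomal genes, in contrast with organoids, were not called. Npc2 was at 8022 to 9257 CP20M in vehicle and 8812 to 10412 with 10 µM (0.15 ± 0.09), and Lipa went from 1858, 1967, 3109 and 4157 to 2733, 3029 and 4187. Lipa was higher in each of the 3 paired lines, at 0.31 ± 0.37 on the log2 scale without the block and 0.53 ± 0.07 with it (adjusted p = 1.85e-05), still under the fold threshold.

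In the efflux arm Abcg1 and Mylip were lower and Abca1 was not called. Abcg1 went from 216, 345, 195 and 131 CP20M to 64, 112 and 53, a log2 fold change of -1.30 ± 0.33 (adjusted p = 0.0137). Mylip went from 338, 356, 377 and 231 to 142, 226 and 177 (-0.78 ± 0.24, adjusted p = 0.0428). The 2 groups did not overlap in either gene. Abca1 was at 1461, 1826, 2484 and 6824 in vehicle and 1371, 1746 and 2983 with 10 µM. Line M11, which has no 10 µM library, was by far the highest, and the Abca1 fold change moved from -0.43 ± 0.71 to 0.06 ± 0.15 with the line as a block. At 8 µM in organoids both exporters were lower. The doses differ between the cultures, and the tables were not tested against each other.

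**Figure D4:**
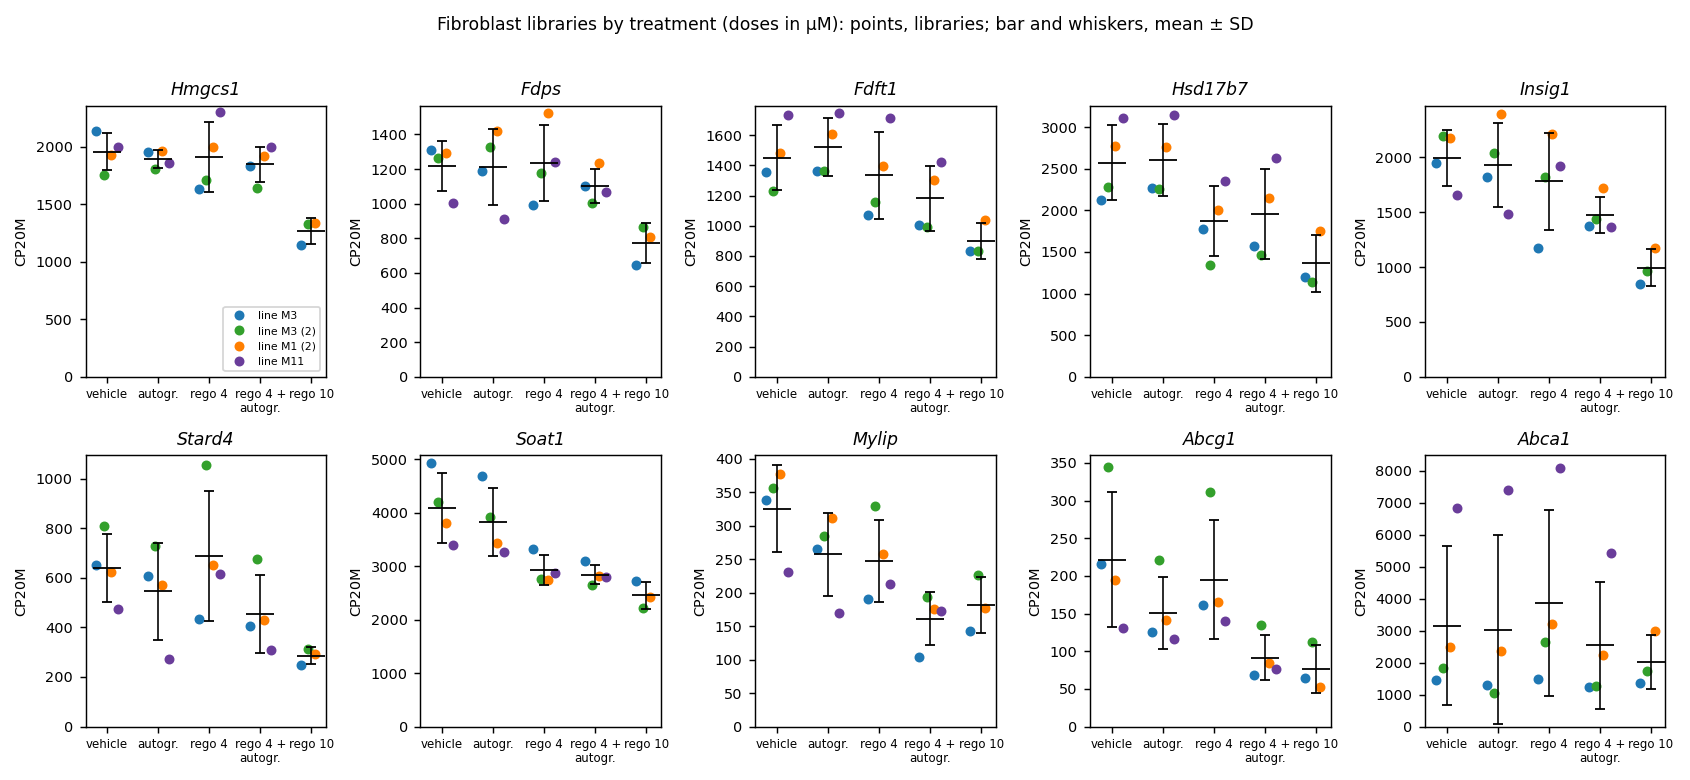
CP20M of 10 genes in fibroblast libraries by treatment, with a coloured point for each line and a bar with whiskers for the mean and SD of 4 lines (3 at 10 µM). Insig1, Stard4 and Hmgcs1 have their lowest means with 10 µM regorafenib, Abcg1 is low with 10 µM and with regorafenib plus autogramin-2, and line M11 stands above the other lines for Abca1 in all 4 treatments given to it.

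Markers of other cell types also shifted between these groups. The summed level of 8 macrophage markers, of which Lyz2 was the highest in vehicle, was 1070 to 6096 CP20M in vehicle, 646 to 2066 with 4 µM regorafenib, 587 to 615 with 10 µM, 771 to 3936 with autogramin-2 and 452 to 722 with R4A1. C1qa was at 4 to 242 CP20M in vehicle and at 0 in the 3 libraries with 10 µM. Smooth muscle markers, 4 in number, summed to 7570 to 23293 CP20M in vehicle, 18007 to 43507 with 4 µM and 30434 to 38725 with 10 µM. Over all fibroblast libraries Actg2 (3515 to 26672 CP20M) and Cnn1 (1072 to 13621) had the highest medians of the 4, while Des stayed at 22 to 167. The sum therefore does not show that smooth muscle cells were present. The cultures also carried endothelial markers, whose sum of 4 was 977 to 8838 CP20M in vehicle, 1503 to 25317 with 4 µM regorafenib, 1320 to 5575 with 10 µM, 823 to 5729 with autogramin-2 and 1671 to 14996 with R4A1. Which cells carried these markers, and their part in the values of the 9 called genes and of Abca1, was not tested. The count of called genes also depended on single lines. It was 2 without M3, 1 without M3 (2), 4 without M1 (2) and 10 without M11.

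At 4 µM no gene of the set was called in fibroblasts, against 1.02% of all genes, and 2 had an unadjusted p under 0.05. edgeR, DESeq2 and the block also called none. Soat1 was nearest, with 3324, 2755, 2731 and 2876 CP20M against the vehicle values above and no overlap (log2 fold change -0.47 ± 0.12, adjusted p = 0.0647). Hsd17b7 followed at -0.47 ± 0.21, with 1774, 1348, 2004 and 2350 CP20M. Among the 34 genes, Soat1, Hsd17b7, Fdft1, Sc5d and Mylip were below vehicle in 4 of 4 lines, Mylip at 190, 330, 257 and 213. Lipa (2196, 2468, 3650 and 4547) and Abca1 (1485, 2649, 3200 and 8083) were higher in 4 of 4 lines, although the groups overlapped. The share of all genes with the same direction in 4 of 4 lines was not counted. Insig1 at 1169, 1821, 2213 and 1916, Srebf2 at 2216, 2784, 2497 and 3105 and Dhcr7 at 340, 459, 387 and 627 went in different directions among the lines.

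Autogramin-2 alone gave no call among the 32 genes (limma), against 0% of all genes (0 of 11032), and none had an unadjusted p under 0.05. edgeR and DESeq2 called none either. Among the 34 genes, Stard4, Soat1, Abcg1 and Mylip were lower than vehicle in 4 of 4 lines. Fdft1, Scap, Insig2 and Npc2 were higher in 4 of 4. The share of all genes with the same direction in 4 of 4 lines was not counted, so no effect is read from these genes. Abcg1 was at 126, 221, 141 and 116 CP20M, with a log2 fold change of -0.47 ± 0.30.

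The combination of 4 µM regorafenib and autogramin-2 lowered Mylip, to 104, 193, 175 and 173 CP20M, a log2 fold change of -0.94 ± 0.23 against vehicle (adjusted p = 0.0338). It was the 1 gene called, against 1.66% of all genes, and all 4 lines lay below the vehicle libraries. The Mylip call was lost without line M3 (-0.74, adjusted p = 0.302), M3 (2) (-0.98, adjusted p = 0.132) or M1 (2) (-0.91, adjusted p = 0.274), and when no filter on low genes was used (adjusted p = 0.0663). The call held without M11 (-1.13, adjusted p = 0.0122). The paired fit by line called 2 genes (6.99% of all genes), Mylip and Abcg1, which was at 69, 135, 84 and 77 CP20M (-1.08 ± 0.12, adjusted p = 1.21e-05). Soat1 passed the p threshold (adjusted p = 0.0346) at -0.51 ± 0.12. Set against 4 µM regorafenib alone, addition of autogramin-2 called none of the 32 genes, against 0.00906% of all genes. In that contrast 3 had an unadjusted p under 0.05, and edgeR and DESeq2 called none. With the line as a block it called Abca1 at -0.60 ± 0.13 (adjusted p = 0.0291) and Abcg1 at -0.92 ± 0.12 (adjusted p = 0.00272), where 1.43% of all genes were called. Of all 158 genes called in that fit, 155 were lower and 3 higher, so a lower call was not particular to the exporters. Abca1 went from 1485, 2649, 3200 and 8083 to 1241, 1253, 2241 and 5438 CP20M. Abcg1 went from 161, 312, 166 and 140 to 69, 135, 84 and 77, and both were lower in 4 of 4 lines. Pmvk, Idi1, Fdft1, Ebp, Stard4, Nr1h3 and Mylip were lower in 4 of 4 too, while Msmo1, Nsdhl, Scap and Npc1 were higher. The share of all genes with the same direction in 4 of 4 lines was not counted. The summed macrophage markers were also lower in each line, from 1145, 646, 930 and 2066 to 681, 452, 522 and 722 CP20M, and the median endothelial sum went from 6860 to 1745, and their part in the Abca1 and Abcg1 values was not tested. The synthesis enzymes had a median of -0.04 on the log2 scale in this contrast, beside -0.03 over all genes.

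Neighbouring pathways were read from lists of other lipid genes. Of 14 fatty acid synthesis genes, largely targets of SREBP1, 3 rose and 2 fell in organoids with regorafenib, where 16.21% of all genes were called, with a median log2 fold change of -0.04 beside -0.10 over all genes. Fatty acid synthase (Fasn) rose by 0.82 and the acetyl-CoA synthetase Acss2 changed by -1.15, while the desaturase Scd1 changed by -1.47. In fibroblasts at 10 µM, 2 of the 14 fell and none rose, Scd1 at -1.12 and Elovl6 at -0.77, where 7.33% of all genes were called and 4.09% were lower. Of 8 sterol transfer genes 7 were tested in organoids and 2 called (16.21% of all genes), as Gramd1a, the target of autogramin-2, rose by 2.13 ± 0.31 (adjusted p = 0.000201) while Stard3 changed by -0.77. In fibroblasts Gramd1a was not called at either dose (0.30 and 0.24 on the log2 scale at 4 and 10 µM).

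Of 7 further genes taken as LXR targets, 4 were tested in organoids and 1 was called, against 16.21% of all genes. It was the small GTPase Arl4c, which rose by 1.44. The median of the tested genes was 0.55 on the log2 scale beside -0.10 over all genes. Control of the listed genes by LXR was not measured. In fibroblasts at 10 µM, 5 of the 7 were tested and 2 called (7.33% of all genes). The phospholipid transfer protein Pltp rose by 1.16 while the transporter Abca7 changed by -0.97 on the log2 scale. Of 5 oxysterol enzymes, 3 were tested in organoids and 1, the sterol 27-hydroxylase Cyp27a1, was called at -0.71, against the same 16.21%. With 5-FU, Lpin1 (1.14), Me1 (1.18) and Arl4c (1.47) were called from these lists, against 2.35% of all genes.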

How the data were processed

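RNA was sequenced from 24 organoid and 19 fibroblast libraries. Per the submitters' processing notes, reads were trimmed with Trimmomatic 0.36, aligned to GRCm38 with STAR 2.5.3a and counted per gene with HTSeq 0.9.1. The deposited signal values, CP20M, are these counts, which the authors scaled to 20000000 per library and rounded up. Organoids and fibroblasts were scaled in separate tables. The strand setting of the counting is not given in the sources used here, so reads from overlapping antisense genes cannot be told apart. Whole reads were recovered from the steps of the values in each library (99.61% to 100% of values came out whole) and gave the depths, from 512599 to 22368148 reads. Within a library 1 step held for every gene, which shows that gene length was not divided out.

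Genes with at least 200 CP20M (10 CPM) in 2 or more libraries were tested with limma 3.58.1 (R 4.3.3), with a mean-variance trend, on log2(CP20M + 20), and p-values were adjusted by Benjamini-Hochberg over all genes tested. A gene was called at an adjusted p below 0.05 with a change of at least 1.5-fold in either direction, or by adjusted p alone for the difference in response between genotypes. The main organoid contrasts average the 4 and 8 µM doses. Alternatives were edgeR 4.0.16 and DESeq2 1.42.0 on the recovered reads, TMM scaling, a pseudocount of 1, no filter, the study's threshold, all 24 organoid libraries in 1 fit, single doses, leaving out the shallow library or each line, and the line as a block. The scripts were tested on simulated data. Levels per kilobase use the summed length of all annotated exons of each gene, pooled over its transcripts.

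Libraries with the same number came from the same mouse line, which pairs them. The median correlation of their deviations from the group means was 0.42 in colonoids, 0.62 in tumoroids and 0.806 in fibroblasts, against -0.209, -0.294 and -0.235 for different lines. P-values of the main fit rest on the spread between lines within groups, and they count libraries of the same line as independent. Those of the fit with the line as a block rest on the spread left after differences between lines are removed. The genes and lists were chosen with earlier results of these data known. Where groups of a named gene are said not to overlap, this describes the libraries that also gave its test. The share of all genes without overlap was not counted. The rule for naming a gene with all its library values was that it was called, or was among the 2 largest fold changes of its role, in a regorafenib comparison of organoids or fibroblasts. Other genes named with values fall outside that rule and were chosen after their values were seen, as were the contrasts of single doses. Promoter sequences are from RefSeq.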

Additional observations from a re-analysis of the deposited data

Results flagged for a closer look

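In 4 of 128 sets of 4 fibroblast libraries (3.12%) 1 library stood apart from the other 3, by a gap to the nearest over Dixon's critical share of the range, where chance gives about 1 in 20. Fdps was lowest in vehicle in line M11, at 1003 CP20M against 1262 to 1313. Sc5d was highest in vehicle in line M1 (2), at 2386 against 1899 to 1968. Nr1h2 was lowest with autogramin-2 in line M11, at 821 against 1037 to 1080. Scap was highest with regorafenib plus autogramin-2 in line M11, at 2989 against 1951 to 2043.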

How the results depend on the processing

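The number of called genes depended on dose, depth and pairing. For regorafenib in organoids of both genotypes it was 2, and 1 at 4 µM (1 with the line as a replicate block, 6 without the shallow library), 8 at 8 µM (8 with the block, 10 without the shallow library), 6 with DESeq2, 5 with edgeR, 4 with TMM scaling, 5 with all 24 libraries, 4 with the block, 1 at the study's threshold, 6 without the shallow library (7 with the block as well) and 2 to 6 with a line left out. In colonoids it was 3, and 1 at 4 µM, 5 at 8 µM (7 with the block, 6 without the shallow library), 5 with DESeq2 and with edgeR, 6 without the shallow library (8 with the block as well) and 1 to 4 with a line left out, the lowest without M40. In tumoroids it was 1, and 2 at 8 µM (5 with the block, 5 without the shallow library), 3 with DESeq2, 2 with edgeR, 3 without the shallow library (5 with the block as well) and 1 to 3 with a line left out. Between the doses it was 1, and 3 with DESeq2, 2 with TMM scaling, with all 24 libraries and with the block (also without the shallow library) and 0 to 1 with a line left out, 0 without M40 or M14. For 10 µM in fibroblasts it was 9, and 1 to 10 with a line left out. For regorafenib plus autogramin-2 it was 1, and 2 with DESeq2 and with the block, 0 without the filter and 0 to 3 with a line left out, the 3 without M11. For autogramin-2 added to regorafenib it was 0, and 2 with the block. The block moved no other count by over 1.5 times. Averaged fold changes turned positive at 4 µM for Abca1 (0.14 with and without the block, 0.22 without the shallow library, and 0.043, 0.043 and 0.20 in colonoids) and Abcg1 (0.030, 0.030 and 0.060). The cause of these shifts was not tested. Of single genes, 374 comparisons with an alternative kept direction and side of the threshold, 46 lost the call and 35 gained it. In the 4 µM colonoid group 1 library held 512599 reads.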
